A study of Mus musculus with 15 samples.

Results

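HLA class I antigen presentation is described here through 9 genes chosen by name, out of 25382 genes in the count table, in tumours grown from MDA-MB-231 cells. The genes are HLA-B, HLA-C, HLA-E and HLA-F, which encode heavy chains, B2M, which encodes the light chain, TAP1 and TAP2 of the peptide transporter, and PSMB8 and PSMB9 of the immunoproteasome. All 9 were in the table and all 9 passed the filter on low counts. MDA-MB-231 is a human triple-negative breast cancer line, and the labels give a derivative positive for GFP and luciferase. The labels give fluid shear as the treatment of the cells and primary tumours of Nod/Skid mice as the source, and bulk mRNA of the dissociated tumours was sequenced. Weakly adherent cells were labelled by a shear of 10 dyn per square centimetre (6 libraries), strongly adherent cells by a shear of 50 in the same unit (4 libraries), and unsorted cells were not sheared (5 libraries). The age of the mice and the number of animals per library are not given in the labels. Each title also carries a number (4, 5, 6, 7-8, 9 or 10) after the word Group, and the labels do not say what it stands for. Libraries are named below by adhesion class and title number. Separate animals for separate libraries are not stated in the labels, and the p-values therefore speak only to the spread among these libraries, which may be technical.

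Class I molecules carry peptides from inside the cell to its surface, where cytotoxic T cells and natural killer cells read them. Proteasomes cut proteins into peptides, and in the immunoproteasome PSMB8 and PSMB9 take the places of the constitutive subunits PSMB5 and PSMB6. TAP1 and TAP2 form the transporter that moves peptides into the endoplasmic reticulum, where a heavy chain paired with the B2M light chain is loaded. Interferon raises the transcription of most of these genes through IRF1 and the class I transactivator NLRC5. Tumours often lower this pathway, which hides them from cytotoxic T cells. The labels do not say which immune cells the host mice had.

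Total counts ran from 30372619 to 45434799 per library. The 3 libraries titled number 6 stood apart from the rest, and in the rest a defining marker went against the labelled line. CDH1, the E-cadherin gene, of which MDA-MB-231 cells are known to express little or none, was at 0.267 to 5.56 CPM (read counts scaled to library size by TMM) in title number 6 and at 53.1 to 549 CPM in the remaining 12. VIM, the vimentin gene of mesenchymal cells, was at 6489 to 7399 CPM against 1143 to 4478 CPM. EPCAM went the way of CDH1, at 25.0 to 50.7 CPM in title number 6 and 115 to 480 CPM in the remaining 12. The other markers checked did not separate the sets. CDKN2A had 0 reads in both, and ESR1 had at most 3 reads in title number 6 and 10 in the remaining 12. CD44 was at 670 to 729 CPM against 478 to 776 CPM. Whether the remaining 12 are of the labelled line was not tested. Striated muscle markers (12 genes summed) were at 157 to 1017 CPM in title number 6, at 2436 CPM in strongly adherent library 5 and at 5.67 to 13.0 CPM in the other 11. The contrast of title number 6 with the rest was singled out with earlier results of these data known, and whatever the number stands for cannot be told apart from the number itself. In that contrast 4018 of 15190 genes passed (26.5% of genes tested, edgeR's quasi-likelihood test, adjusted p under 0.05), 10.4% higher and 16.0% lower. This high background is the scale against which the class I genes have to be read.

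Of the 9 class I genes, 5 were lower in title number 6 (55.6%, against 16.0% of all genes tested) and none was higher. These were HLA-B, HLA-C, HLA-F, TAP1 and PSMB9. The median log2 fold change of the 9 genes was -0.56, beside -0.0064 over all genes tested. HLA-E, B2M, TAP2 and PSMB8 did not pass. The count rests on few libraries. Without strongly adherent library 6, 2 of the 9 genes passed (HLA-F and TAP1, both lower), beside 1642 of 15331 genes tested. Without unsorted library 6, 3 of the 9 passed, with HLA-E among them as higher, beside 3272 of 15138. Without weakly adherent library 6, 7 of the 9 passed, all lower, beside 3373 of 15154. With all libraries kept, 4018 of 15190 genes passed, so the calls over all genes fell as well. In bulk tumour RNA, fewer cells of a type and less RNA per cell cannot be told apart.

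**Figure D1:**
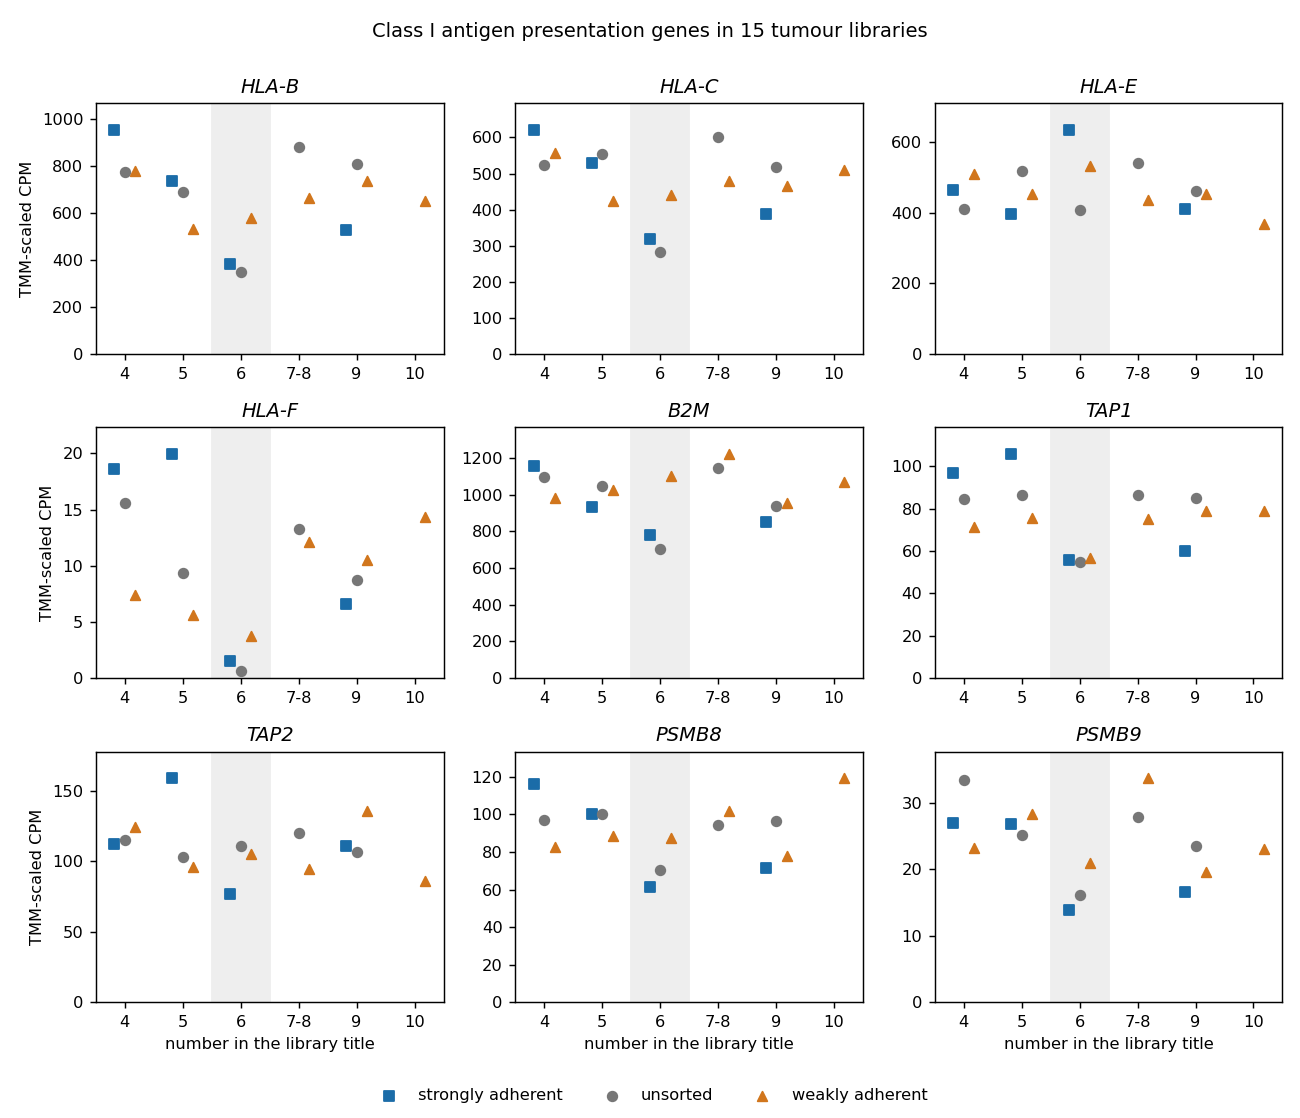
TMM-scaled CPM (linear axis from 0) of the 9 class I genes in each of the 15 libraries, by the number in the library title, with 1 point per library and the shape and colour giving the adhesion class. The shaded title number 6 lies below all other libraries for HLA-F and TAP1, overlaps them for the other 7 genes, and holds the highest HLA-E value, 633 CPM.

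The classical heavy chain genes HLA-B and HLA-C encode the molecules that present peptides to cytotoxic T cells. HLA-B was at 383, 349 and 581 CPM in the strongly adherent, the unsorted and the weakly adherent library 6. In the other 12 libraries it ran from 529 through a median of 738 to 954 CPM. Strongly adherent and unsorted library 6 were the lowest of all 15, while weakly adherent library 6 lay above 2 of the others, so the sets overlapped. HLA-B fell by 0.73 on the log2 scale with an SE of 0.19, a 1.66-fold difference (edgeR adjusted p = 0.0104).

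HLA-C was at 317, 282 and 441 CPM in the strongly adherent, the unsorted and the weakly adherent library 6, and ran from 387 through 521 to 620 CPM in the others. Its order was that of HLA-B, with weakly adherent library 6 again above 2 of the other 12. HLA-C fell by 0.56 (log2, SE 0.15, edgeR adjusted p = 0.0139). Neither gene passed without strongly adherent library 6 (edgeR adjusted p = 0.0886 for HLA-B and 0.0976 for HLA-C) or without unsorted library 6 (0.0939 and 0.131). Over all alternatives the adjusted p ran from 0.00115 to 0.0939 for HLA-B and from 0.00341 to 0.131 for HLA-C, and the fold change stayed negative in each.

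HLA-E, a nonclassical heavy chain that binds leader peptides of other class I chains and is read by natural killer cells, did not follow HLA-B and HLA-C. It was at 633, 409 and 533 CPM in the strongly adherent, the unsorted and the weakly adherent library 6, and ran from 369 through 454 to 539 CPM in the others. Library 6 was the highest of the strongly adherent and of the weakly adherent libraries but the lowest of the unsorted ones. The log2 fold change was 0.22 with a 95% interval from -0.07 to 0.50 (edgeR adjusted p = 0.246). Without unsorted library 6 it was 0.44 and passed (edgeR adjusted p = 0.0316), and over all alternatives the adjusted p ran from 0.0316 to 0.910.

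HLA-F, a nonclassical heavy chain with narrow expression, had the lowest counts of the 9 genes and the largest difference. It had 56, 23 and 121 reads in the strongly adherent, the unsorted and the weakly adherent library 6, which is 1.50, 0.585 and 3.72 CPM. In the other 12 libraries it ran from 5.62 through 11.3 to 19.9 CPM, with no overlap. HLA-F fell by 2.66 (log2, SE 0.54), a 6.33-fold difference (95% interval of the log2 fold change from -3.82 to -1.51, edgeR adjusted p = 0.00322). It passed under every alternative run, with log2 fold changes from -3.76 to -2.13 and adjusted p up to 0.0345. HLA-F-AS1, the antisense gene at the same locus, was at a mean of 0.947 ± 0.651 CPM there (SD, n = 3) and 2.79 ± 0.771 CPM elsewhere (SD, n = 12). It was picked after its values were seen, and since the sources used here do not say whether counting used strand, its reads and those of HLA-F cannot be told apart with certainty.

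B2M encodes the light chain that all class I heavy chains need at the surface. It was at 780, 707 and 1103 CPM in the strongly adherent, the unsorted and the weakly adherent library 6 and ran from 852 through 1038 to 1221 CPM in the others. The 2 lowest values of the 15 belonged to title number 6, but weakly adherent library 6 lay above 9 of the other 12. The log2 fold change was -0.26 with an interval from -0.54 to 0.02 (edgeR adjusted p = 0.159). Without weakly adherent library 6 it was -0.46 and passed (edgeR adjusted p = 0.0414), and the range over the alternatives was 0.0414 to 0.701.

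Near-identical copies limit what the single heavy chain genes show, because a read of 50 bases often matches more than 1 class I gene and the deposited counts do not say how such reads were assigned. The sum over HLA-B, HLA-C, HLA-E and HLA-F does not depend on how reads were split among these 4. It was 1335, 1041 and 1558 CPM in the strongly adherent, the unsorted and the weakly adherent library 6 and 1333 to 2056 CPM (median 1702) in the other 12. Only unsorted library 6 lay below all of the other 12 in this sum. The class I pseudogene HLA-H, whose reads are easily confused with those of the expressed genes, fell by 0.42 (log2, SE 0.13, edgeR adjusted p = 0.0243).

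The make-up of the heavy chain reads also set title number 6 apart. The count of HLA-E divided by that of HLA-B was 1.65, 1.17 and 0.916 in the strongly adherent, the unsorted and the weakly adherent library 6 and 0.486 to 0.850 in the other 12, with no overlap. HLA-E held 47.4%, 39.3% and 34.2% of the reads of the 4 heavy chain genes in those 3 libraries and 22.5% to 32.0% in the others. The ratio was 1.96-fold higher in title number 6. This ratio and the 2 proteasome ratios below were chosen after their values were seen, so they are given as a description, with no test. HLA-F over HLA-E, given as a description too, was 0.00143 to 0.00698 in title number 6 and 0.0124 to 0.0503 in the other 12, with no overlap. HLA-B over HLA-C, TAP1 over TAP2, PSMB8 over PSMB9 and the heavy chain sum over B2M did not separate title number 6.

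TAP1 and TAP2 are the subunits of the peptide transporter. TAP1 was nearly constant within title number 6, at 55.6, 54.7 and 56.8 CPM in the strongly adherent, the unsorted and the weakly adherent library 6. In the others it ran from 60.0 through 81.8 to 106 CPM. The sets did not overlap, though strongly adherent library 9, the lowest of the 12, came close. TAP1 fell by 0.57 (log2, SE 0.13, 1.48-fold, edgeR adjusted p = 0.00446) and passed under every alternative run, with log2 fold changes from -0.65 to -0.51 and adjusted p up to 0.0431.

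TAP2 was at 77.0, 111 and 106 CPM in the strongly adherent, the unsorted and the weakly adherent library 6 and ran from 86.4 through 112 to 159 CPM in the others. Only strongly adherent library 6 lay below the other 12. Its log2 fold change of -0.22 had an interval from -0.55 to 0.12 (edgeR adjusted p = 0.326) and passed under no alternative run. HLA-F and TAP1 were the 2 of 9 genes (22.2%) whose 3 values in title number 6 all lay below the other 12, against 10.4% of all genes tested. None of the 9 had all 3 values above the other 12, against 5.63% of all genes tested.

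PSMB8 and PSMB9 encode catalytic subunits of the immunoproteasome, the form that interferon brings forward. PSMB9 was at 13.9, 16.1 and 20.9 CPM in the strongly adherent, the unsorted and the weakly adherent library 6 and ran from 16.5 through 25.9 to 33.6 CPM in the others. Weakly adherent library 6 lay above 2 of these, strongly adherent library 9 and weakly adherent library 9. PSMB9 fell by 0.59 (log2, SE 0.18, edgeR adjusted p = 0.0257). It did not pass without strongly adherent library 6 (0.149), without unsorted library 6 (0.133) or with only the title numbers that hold all 3 classes (0.0503), and the range over the alternatives was 0.0111 to 0.149.

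PSMB8 was at 61.4, 70.5 and 87.3 CPM in the strongly adherent, the unsorted and the weakly adherent library 6 and ran from 71.7 through 96.8 to 119 CPM in the others. Its log2 fold change of -0.39 ± 0.15 (SE) did not pass (edgeR adjusted p = 0.0620). It passed without weakly adherent library 6 (0.0358), strongly adherent library 9 (0.0303) or weakly adherent library 9 (0.0436) and without the term for adhesion class (0.0474), in a range over the alternatives of 0.0303 to 0.322.

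Set against the constitutive subunits they replace, both immunoproteasome genes separated title number 6 without overlap. PSMB8 over PSMB5 was 0.473, 0.447 and 0.497 in the strongly adherent, the unsorted and the weakly adherent library 6 and 0.552 to 0.938 in the others. PSMB9 over PSMB6 was 0.104, 0.0901 and 0.101 against 0.110 to 0.211. These count ratios were 1.53-fold and 1.65-fold lower in title number 6. PSMB5, the constitutive counterpart, was itself higher there (log2 fold change 0.24 ± 0.09 SE, edgeR adjusted p = 0.0496). A ratio shows unequal change and not which gene changed.

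**Figure D2:**
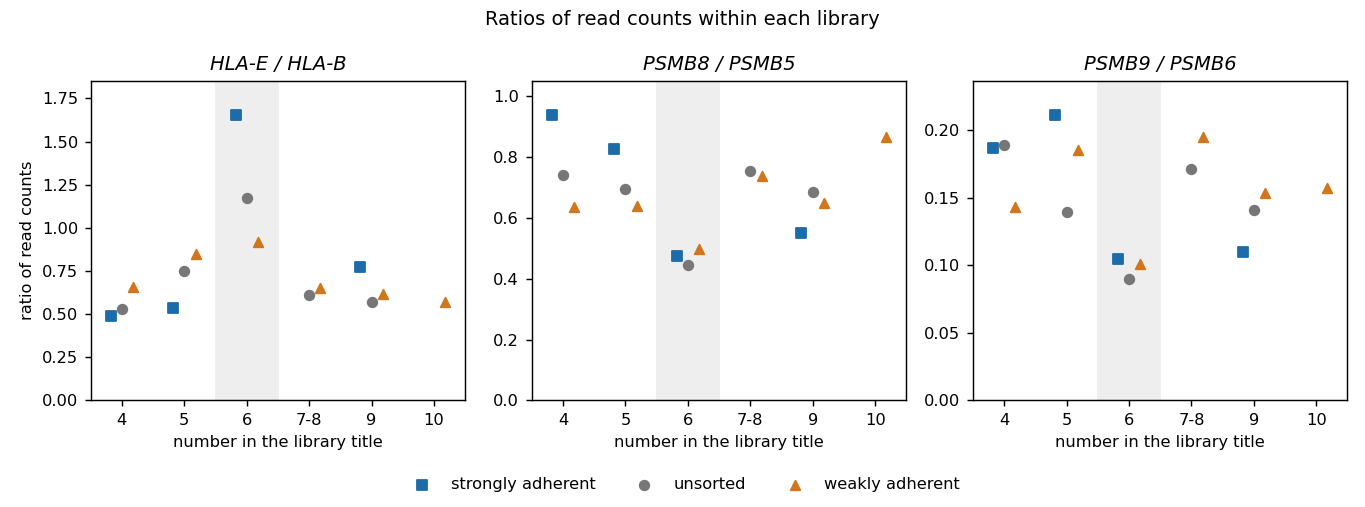
Ratios of read counts within each library (linear axes from 0, not corrected for gene length) for HLA-E over HLA-B, PSMB8 over PSMB5 and PSMB9 over PSMB6, by the number in the library title, with 1 point per library. In the shaded title number 6 the first ratio, 0.916 to 1.65, lies above the other 12 libraries and the other 2 ratios lie below them.

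The 12 libraries not titled number 6 were compared among themselves as well. In a test for any difference among title numbers 4, 5, 7-8, 9 and 10 that kept the adhesion class as a term, 0 of the 9 genes passed and 0 had an unadjusted p under 0.05. In all, 3 of 15255 genes passed this test (0.0197%). PSMB9 came nearest (edgeR adjusted p = 0.361). Its mean was 30.7 ± 4.08 CPM in title number 7-8 (SD, n = 2) and 19.8 ± 3.49 CPM in title number 9 (SD, n = 3). On simulated counts this test recovered 46% of genes changed by 1 on the log2 scale, so differences of that size may have been missed. DESeq2 called 940 genes and limma voom 13 in the same comparison, and none of the 9 passed with either.

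Pairs of class I genes were compared across these 12 libraries on log2 CPM, 5 pairs in all. The permutations shuffled the 12 libraries freely, so the p-values of all pairs take no account of shared title numbers or adhesion classes. HLA-B and HLA-C rose and fell together (Pearson r = 0.89, permutation p = 0.00011, adjusted over the 5 pairs 0.00055; Spearman rho = 0.80, p = 0.00311, adjusted 0.0156). The r was 0.74 without strongly adherent library 9 and weakly adherent library 5, the libraries farthest from the median of HLA-B, and 0.96 over 11 libraries once the mean of each title number was subtracted. The share of this that comes from reads common to both genes was not tested. HLA-B with B2M had r = 0.40 (permutation p = 0.203, adjusted 0.203) and rho = 0.29 (p = 0.352, adjusted 0.406).

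The other 3 pairs did not hold after adjustment. TAP1 and PSMB9, neighbours that share a divergent promoter, had r = 0.49 (permutation p = 0.103, adjusted 0.172) and rho = 0.27 (p = 0.406, adjusted 0.406), and r = 0.10 without strongly adherent libraries 5 and 9. TAP1 with TAP2 had r = 0.39 (permutation p = 0.200, adjusted 0.203) and rho = 0.36 (p = 0.259, adjusted 0.406). PSMB8 with PSMB9 had r = 0.58 (permutation p = 0.0493, adjusted 0.123) and rho = 0.40 (p = 0.200, adjusted 0.406), and this relation rested on strongly adherent library 9 and weakly adherent library 9, since r was -0.03 without them.

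Of 13129 other genes at a mean of at least 1 CPM, those most like HLA-B over the 12 libraries by Pearson r of log2 CPM were GALNT18 (0.86), ATP6V0A4 (0.84), TAPBP (0.82), TM4SF1 (0.79) and GUSB (0.79). TAPBP encodes tapasin, which bridges class I heavy chains to the TAP transporter. For TAP1 they were TSPAN15 (0.92), PARP12 (0.91), IL1RL2 (0.88), RDH14 (0.87) and LPAR2 (0.86). PARP12 is an interferon-induced gene. These are the highest values among many genes in libraries that share depth and title numbers, given as a description.

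The adhesion class asked whether cells that hold on weakly or strongly give tumours with a different class I programme. None of the 9 genes passed in any of the 3 comparisons, and none had an unadjusted p under 0.05 in edgeR's test. The background was 0% in each: edgeR called 0 of 15190 genes, with 366, 81 and 572 at an unadjusted p under 0.05 for weakly against strongly adherent, weakly adherent against unsorted and strongly adherent against unsorted. DESeq2 and limma voom with the class as the only term also called 0. With the title number as a block, alternatives added after seeing the data, DESeq2 called 30, 0 and 23 genes and limma voom 7, 0 and 0, none of them among the 9.

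HLA-B averaged 651 ± 249 CPM in strongly adherent tumours (SD, n = 4), 701 ± 209 CPM in unsorted (SD, n = 5) and 658 ± 92.4 CPM in weakly adherent ones (SD, n = 6). HLA-C averaged 463 ± 136, 496 ± 124 and 480 ± 48.5 CPM in the same order. Without title number 6 the spread shrank mainly in the unsorted class, and HLA-B averaged 740 ± 212, 789 ± 80.3 and 673 ± 94.4 CPM (SD, n = 3, 4 and 5). HLA-E averaged 476 ± 109, 468 ± 60.1 and 459 ± 57.9 CPM, and HLA-F 11.7 ± 9.04, 9.50 ± 5.73 and 8.95 ± 4.05 CPM. For HLA-F the SD of the strongly adherent libraries was nearly as large as their mean.

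B2M averaged 930 ± 163, 988 ± 176 and 1060 ± 95.8 CPM in that order. TAP1 averaged 79.6 ± 25.5, 79.4 ± 13.9 and 72.9 ± 8.40 CPM, and TAP2 115 ± 33.7, 111 ± 6.61 and 107 ± 19.2 CPM. For both transporter genes the strongly adherent libraries were the most scattered. PSMB8 averaged 87.5 ± 25.4, 91.8 ± 12.1 and 92.9 ± 15.3 CPM, and PSMB9 21.0 ± 6.80, 25.2 ± 6.31 and 24.7 ± 5.28 CPM. For each of the 9 genes, the largest distance between class means was below the largest SD within a class. Without title number 6, none of the 9 genes passed either, and edgeR again called 0 genes in each comparison.

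The intervals show what these libraries could resolve. For the 8 genes other than HLA-F, log2 fold changes in the 3 comparisons lay between -0.26 and 0.24, and the 95% intervals between -0.76 and 0.71, so a difference of 1 on the log2 scale lies outside them. HLA-F was less precise, with -0.38 (interval from -1.94 to 1.18) for weakly against strongly adherent, -0.08 (-1.56 to 1.39) for weakly adherent against unsorted and 0.30 (-1.33 to 1.93) for strongly adherent against unsorted. Within title numbers the direction also varied. Of the 4 numbers with both classes, HLA-B was higher in the weakly than in the strongly adherent library in 2 and lower in 2, and so were HLA-C, HLA-F, TAP1 and PSMB8. B2M, HLA-E, TAP2 and PSMB9 were each higher in 3 of the 4. HLA-F spanned the widest range of such differences, from -1.82 in title number 5 to 1.28 in title number 6 on the log2 scale.

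**Figure D3:**
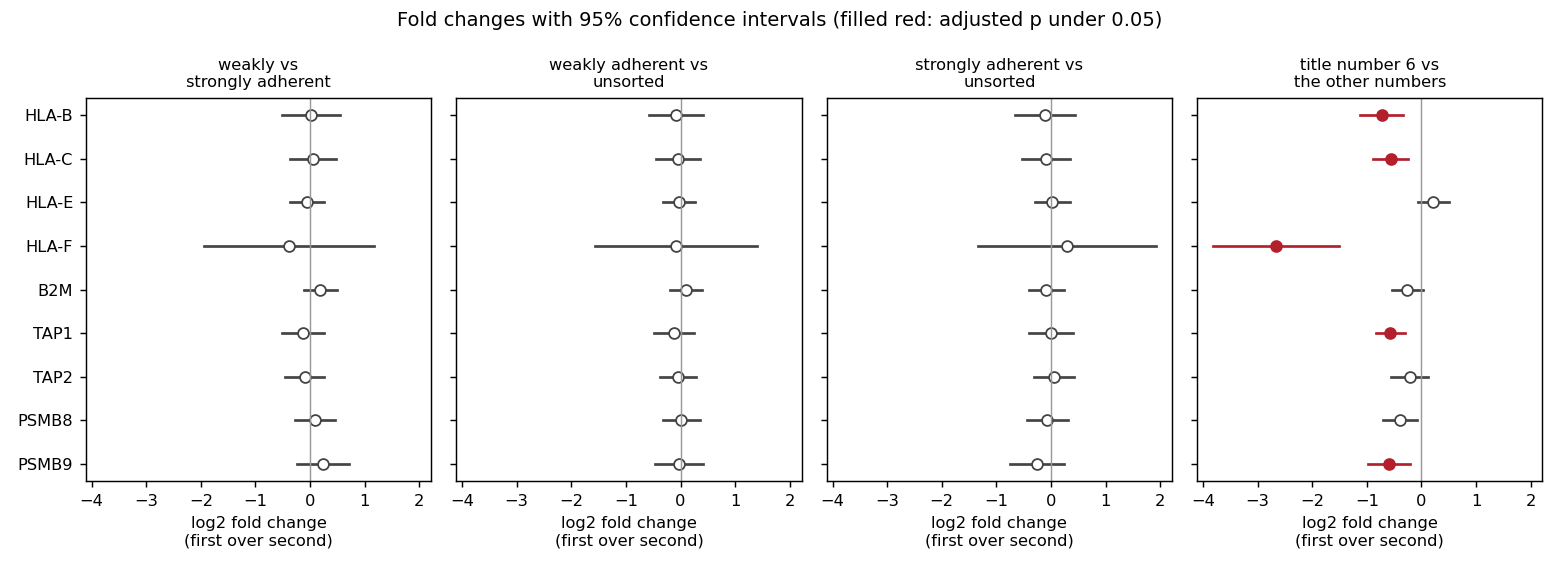
Log2 fold changes (points) with 95% confidence intervals (lines) of the 9 class I genes in 4 edgeR contrasts, first-named group over the second. Intervals of all 9 genes include 0 in the 3 adhesion contrasts, and the 5 filled points in the last panel are HLA-B, HLA-C, HLA-F, TAP1 and PSMB9.

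The rest of the class I pathway was read from lists of known genes, in the contrast of title number 6 with the others. Loading and trimming factors changed little: of 10, 1 was higher (HSPA5, a chaperone of the endoplasmic reticulum, log2 fold change 0.67 ± 0.12 SE) and 0 lower, with a median of -0.04. TAPBP, which encodes tapasin, was at a mean of 216 ± 7.69 CPM there (SD, n = 3) and 229 ± 22.4 CPM elsewhere (SD, n = 12). Its log2 fold change was -0.08 with an interval from -0.29 to 0.13. The calls here and below are edgeR's at an adjusted p under 0.05. Of all genes tested, 16.0% were lower and 10.4% higher in this contrast. The counts in each list are to be read beside those shares, and no list was tested as a set.

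The 14 constitutive proteasome subunits had 4 higher, 0 lower and a median of 0.16, beside 10.4% higher and 16.0% lower of all genes tested. The 4 were PSMB1 (0.49 ± 0.12 SE), PSMA6 (0.34 ± 0.10), PSMA2 (0.29 ± 0.09) and PSMB5, given above. Of the 5 further genes of the immunoproteasome and its activator, POMP, the assembly chaperone, was higher (0.40 ± 0.12 SE) and none was lower. PSMB10, the remaining immunoproteasome subunit, did not pass, at a mean of 24.6 ± 2.43 CPM there (SD, n = 3) and 32.2 ± 7.52 CPM elsewhere (SD, n = 12), and its log2 fold change was -0.39 ± 0.20 (SE).

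Of the 9 other class I and class I-like genes tested, 2 were lower and 0 higher, with a median of -0.34. Of all genes tested, 16.0% were lower. Beside HLA-H, the gene MR1, which presents microbial metabolites to innate-like T cells, fell by 1.41 (log2, SE 0.33) to 4.51 ± 1.89 CPM (SD, n = 3) from 11.4 ± 4.07 CPM (SD, n = 12).

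Of the 14 genes that drive class I transcription and are reported here, 3 were lower and 1 higher, with a median of 0.01. These counts are near the shares of all genes tested, 16.0% lower and 10.4% higher. IRF9, STAT2 and IRF1, which carry the interferon signal in the nucleus, were the lower ones. NFYA, a subunit of a factor that binds class I promoters, was higher, with a log2 fold change of 0.39 ± 0.12 (SE). For IRF9, STAT2 and IRF1 the log2 fold changes were -1.25 ± 0.20, -1.01 ± 0.22 and -0.59 ± 0.13 (SE). IRF1 was at 40.1, 33.8 and 32.0 CPM in the strongly adherent, the unsorted and the weakly adherent library 6 and at 42.1 to 65.1 CPM elsewhere, with no overlap. NLRC5, the transactivator of class I genes, was at 13.6, 15.4 and 17.0 CPM against 13.6 to 23.0 CPM and did not pass (-0.29 ± 0.14 SE, adjusted p = 0.137).

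Of 12 interferon receptors, kinases and their inhibitors, 2 were lower and 2 higher, with a median of -0.07, near the 16.0% and 10.4% of all genes tested. The receptor subunit genes IFNLR1 and IFNAR2 fell by 1.80 (SE 0.31) and 0.82 (SE 0.17) on the log2 scale, while PTPN2, a phosphatase that restrains the pathway, and the kinase TYK2 had 0.41 ± 0.12 and 0.37 ± 0.13 (SE). Of 11 class II genes tested, 3 were lower and 0 higher, with a median of -1.03, beside 16.0% lower of all genes tested. CD74, the invariant chain of class II, was at a mean of 57.9 ± 18.3 CPM there (SD, n = 3) and 107 ± 27.8 CPM elsewhere (SD, n = 12), and fell by 0.89 (log2, SE 0.27). In the 3 adhesion contrasts and in the test among the other title numbers, 0 genes of these lists passed by edgeR.

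**Figure D4:**
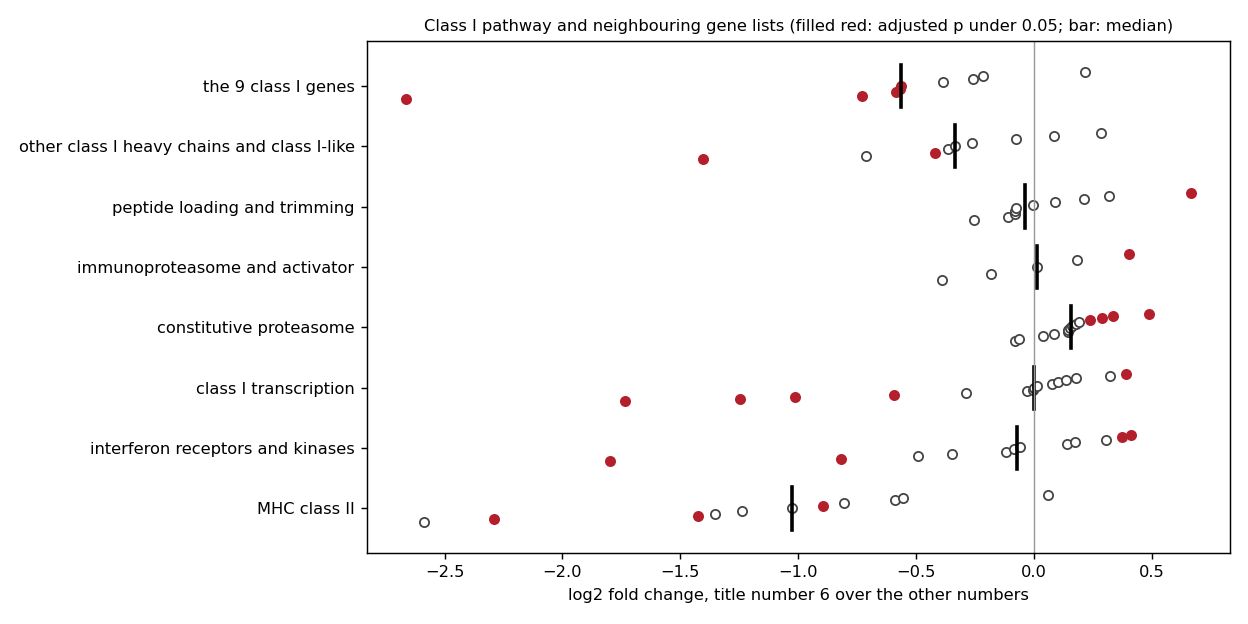
Log2 fold change of title number 6 over the other numbers (x axis) for each tested gene of the 9 class I genes and 7 related lists, with 1 point per gene and a bar at the median of each list. The class I genes have a median of -0.56 with 5 filled points, and the constitutive proteasome has a median of 0.16 with 4 filled points to the right of 0.

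Markers of other cell types moved with title number 6 as well. Fibroblast markers (10 genes summed) were at 223 to 413 CPM in title number 6 against 443 to 1361 CPM elsewhere. Of the 8 tested, 5 were lower and 1 higher. Endothelial markers (10 genes) summed to 201 to 208 CPM against 70.8 to 178 CPM, but of the 8 tested only 1 was higher and 2 were lower. Their median log2 fold change was 0.10, so the sum does not show a rise of these markers as a set. Of all genes tested, 16.0% were lower and 10.4% higher. The muscle markers given above were high in title number 6 and in strongly adherent library 5. Leukocyte markers (20 genes) summed to 208 to 365 CPM in title number 6 and 156 to 205 CPM in the others. Of the 10 that were tested, 2 were higher (CD68 and LAPTM5, which make up most of the sum) and 4 lower (CD3D, CORO1A, CSF1R and PTPRC). CSF1R was at 4.17 to 10.0 CPM against 9.31 to 16.3 CPM and PTPRC, the pan-leukocyte gene, at 0.107 to 0.399 CPM against 0.584 to 1.83 CPM. CD3D reached 3.53 CPM among the others and stayed at or below 0.0307 CPM in title number 6. CD14 and LYZ were at no more than 2.50 and 2.40 CPM in any library, and CD2, MS4A1 and TYROBP had 0 reads in all 15. Whether reads of mouse host cells were counted on the human class I genes was not tested, nor was the part of these markers in the class I differences.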

How the data were processed

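The values are bulk mRNA read counts of 15 tumour libraries (Illumina TruSeq stranded kit, single-end reads of 50 bases, per the labels' protocols). The submitters' processing notes list build hg19 and the tools STAR, HTSeq, cutadapt, FastQC and DESeq2. How reads that match several HLA genes were handled, and whether strand was used, is not given in the sources used; either could move reads between HLA genes. Reads of alleles unlike the reference may also be lost. The authors deposited whole-number read counts by gene symbol. Their deposited log2 values equal log2 of 1 plus the count over a DESeq2 size factor (largest deviation 5.15e-14). The labels name mouse as the organism, while gene symbols and build are human. No human sequence or coordinates were used here.

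Differences were tested on the counts with edgeR 4.0.16 under R 4.3.3 (TMM, filterByExpr by adhesion class, robust quasi-likelihood fit, two-sided, Benjamini-Hochberg over all genes tested, threshold 0.05), which kept 15190 genes with 99.98% of the counts. The adhesion contrasts used all 15 libraries with the class as the only term. Title number 6 was compared with the rest with the class as a further term. Title numbers among the other 12 libraries were compared with an F test over 15255 genes. SEs were derived from the fold change and the F statistic, so intervals are approximate. Log2 CPM used a prior count of 2, and correlation p-values used 100000 permutations. Alternatives were other scalings and filters, DESeq2 1.42.0, limma 3.58.1, the title number as a block and each library left out.

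Deviations from class means were correlated between libraries of the same title number. The correlations ran from 0.28 to 0.75 over 4 numbers for strongly adherent and unsorted libraries. The lowest was 0.02 for weakly against strongly adherent and 0.03 for weakly adherent against unsorted. Title number 6, which stood apart, gave the highest value in each and is part of the class means. Libraries of unlike numbers were not correlated, so these values cannot show that the title numbers pair libraries. On simulated counts, the title number 6 contrast recovered 77% of genes changed by 1 on the log2 scale and 96% of those changed by 2, among 15062 genes, with 5 false calls. The contrast of weakly with strongly adherent recovered 81% and 97% among 15058 genes, with 9 false calls, and the test among other numbers 46% and 92% among 15061 genes, with 13. The simulated counts held no difference of title number 6, and their spread was estimated with that difference taken out. On the real counts the adhesion contrasts keep that difference in their spread, so 81% and 97% may overstate what they could recover.

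The 9 genes, the lists and title number 6 were chosen with earlier results of these data known. From each list, up to 4 genes past the threshold with a mean of at least 1 CPM are named, those of largest fold change, and NLRC5, IRF1, PSMB10, TAPBP and PSMB5 are always named. Some genes that this rule covers are not reported here.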

Additional observations from a re-analysis of the deposited data

Results flagged for a closer look

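In 6 of 27 combinations of a class I gene and an adhesion class, a single library stood apart from the others of its class (the gap to its nearest neighbour as a share of the range, on log2 CPM). For a single combination chance gives about 1 in 20, but the 27 share the same libraries and are not independent. How many of all genes tested stand apart by this measure was not counted. Of all genes tested, 10.4% had the 3 libraries of title number 6 below the other 12. All 6 belonged to title number 6 and were the lowest of their class. Unsorted library 6 stood apart for TAP1 (gap 0.949 of the range), PSMB8 (0.833), HLA-F (0.820), HLA-C (0.807) and HLA-B (0.733), among 5 libraries. Weakly adherent library 6 stood apart for TAP1 (0.695), among 6 libraries. Strongly adherent library 6 was also the lowest of its 4 for 8 of the 9 genes, all but HLA-E, without standing apart by this measure.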

How the results depend on the processing

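None of the 9 class I genes passed in an adhesion comparison in any of 729 refitted values (lowest adjusted p = 0.501), nor in the test among the other title numbers in any of 180 (lowest 0.217). With the title number as a replicate block, edgeR called 0 genes in each adhesion comparison, and the block changed no call of a class I gene (81 values, lowest adjusted p = 0.501). DESeq2 with the replicate block called 30 genes for weakly against strongly adherent and 23 for strongly adherent against unsorted, and limma voom with it called 7 for weakly against strongly adherent. For title number 6, the 4018 genes called ranged from 1642 (without strongly adherent library 6) to 4543 when a library was left out, and the class I genes called from 2 to 7. Among the other numbers, the 3 genes called became 24 without a filter, 940 by DESeq2, 13 by limma voom, 13 by limma-trend on the deposited log2 values, 0 without the class term, and 0 to 175 when a library was left out. The cause of these shifts was not tested. Upper-quartile scaling moved the median fold change of all genes to -0.03, and 65.4% of calls were then lower against 60.6%. The correlation of PSMB8 with PSMB9 turned to -0.028 without 2 libraries. HLA-F, with 23 to 121 reads in title number 6, is the gene whose precision depth limits most.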
